A study of Mus musculus with 6 samples.

Results

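The genes described here are 7 that a cholinergic or motor neuron uses: Chat, Slc18a3 and Slc5a7, which make and move acetylcholine, and the transcription factor genes Isl1, Isl2, Phox2a and Mnx1. They were chosen by name, as 7 of the 42396 genes in each count table, with their CPM (a count scaled to library size) in the knockdown and control libraries already known. The CPM values of this same contrast thus entered the choice, and the group differences below are a description and not a test of these genes. RNA was sequenced from primary ventral midbrain cultures of wild-type mouse embryos at embryonic day 14. All cultures were plated at 150000 cells per well and infected with lentivirus on the same day, at a multiplicity of 5. The virus carried a hairpin against circRmst, a circular RNA of the gene Rmst, in the 3 knockdown libraries (pll3.7-shRmstI), and a scramble hairpin in the 3 control libraries (pll3.7-Scr2). RNA was collected after 3 days in vitro. The labels give 3 independent cultures but not which libraries share one, so the replicate numbers below name libraries.

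Acetylcholine is made by choline acetyltransferase, the product of Chat, from choline that the transporter encoded by Slc5a7 brings into the nerve ending. The product of Slc18a3 loads it into synaptic vesicles. The ventral midbrain gives rise to the motor neurons of the oculomotor nucleus, which move the eye and lie close to the dopamine neurons. Phox2a is needed to form such cranial motor neurons, Isl1 and Isl2 mark motor neurons after their last division, and Mnx1 is best known from motor neurons of the spinal cord.

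Slc18a3 lies inside Chat, an arrangement called the cholinergic locus. In the GRCm38 annotation of the deposited values, Chat spans chr14:32408203-32465909 and Slc18a3 spans chr14:32462437-32464850, both on the minus strand. By the GENCODE M21 annotation of the same build, Slc18a3 is 1 exon of 2413 bases within a Chat intron. It ends 395 bases before the next Chat exon and begins 956 bases after the preceding one, with 0 bases of shared exon. Unspliced Chat RNA would run across Slc18a3 on the same strand, so a strand setting cannot keep such reads apart. Slc5a7 is at chr17:54273590-54299038, Isl1 at chr13:116298270-116309688, Isl2 at chr9:55538677-55547667, Phox2a at chr7:101818313-101822726 and Mnx1 at chr5:29473823-29478470.

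**Figure D1:**
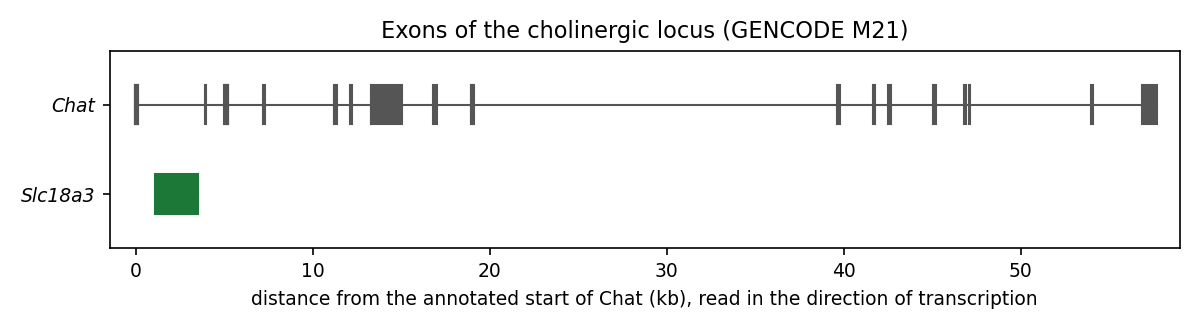
Exons of Chat (top) and Slc18a3 (bottom) as boxes, by distance in kb from the start of Chat, read in the direction of transcription. Slc18a3 is a single exon of 2413 bases in the gap after the initial exons of Chat, and shares no exon base with it.

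The sequences before the starts of the 3 acetylcholine genes and of Isl1 are shown because their products would have to be made together in a motor neuron. They are from RefSeq (GRCm38.p6), on the minus strand, 5′ to 3′, cut where an annotated exon or the deposited gene span begins. Capitals mark TAAT or its reverse complement ATTA, the core that many homeodomain proteins bind. As printed, Slc18a3 holds 1 match and Isl1 holds 2, and Chat and Slc5a7 hold 0. Chat is shown from chr14:32465990-32466159, Slc18a3 from chr14:32464851-32465100, Slc5a7 from chr17:54299039-54299284 and Isl1 from chr13:116309690-116309938.
Chat: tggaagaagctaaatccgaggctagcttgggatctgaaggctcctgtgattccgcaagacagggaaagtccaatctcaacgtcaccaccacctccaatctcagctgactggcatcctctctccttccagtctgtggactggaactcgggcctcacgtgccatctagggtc
Slc18a3: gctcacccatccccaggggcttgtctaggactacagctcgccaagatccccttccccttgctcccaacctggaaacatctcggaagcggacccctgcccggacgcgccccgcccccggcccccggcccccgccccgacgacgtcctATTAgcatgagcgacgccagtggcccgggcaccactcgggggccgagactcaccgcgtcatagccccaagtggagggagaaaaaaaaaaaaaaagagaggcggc
Slc5a7: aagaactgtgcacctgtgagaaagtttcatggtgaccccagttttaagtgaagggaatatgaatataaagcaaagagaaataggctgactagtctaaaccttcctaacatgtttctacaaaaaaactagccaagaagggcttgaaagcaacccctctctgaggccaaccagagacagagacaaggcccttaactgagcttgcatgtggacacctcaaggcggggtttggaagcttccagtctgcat
Isl1: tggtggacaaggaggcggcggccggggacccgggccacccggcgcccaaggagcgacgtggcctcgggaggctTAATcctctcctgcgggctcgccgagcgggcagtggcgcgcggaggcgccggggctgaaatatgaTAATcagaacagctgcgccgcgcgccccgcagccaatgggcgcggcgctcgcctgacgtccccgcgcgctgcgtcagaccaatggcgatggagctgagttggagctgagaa

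In the 250 bases before the start, 3 of the 7 genes hold the core TAAT on either strand: Slc18a3 and Mnx1 with 1 match each, and Isl1 with 2. It stands in 54.9% of all 32851 promoter windows of that length. The E-box CANNTG, the letters read by proneural factors, stands in 5 of the 7 windows and in 66.2% of all windows. Slc5a7 has 3 in its window and 2 in the sequence as printed. The windows are uncut, and hold bases left off the printed sequences (80 for Chat, 4 for Slc5a7 and 1 for Isl1). A match is a string of letters and not a binding site.

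All 7 genes were low in these cultures. Together they took 931 counts over the 6 libraries, of which 774 (83.1%) came from Slc5a7 and Slc18a3, and libraries held 27248934 to 43646521 counts in all. The sum of the 7 was 5.54, 2.87 and 3.42 CPM (scaled by the TMM method) in knockdown replicates 1, 2 and 3, and 4.88, 3.97 and 3.27 CPM in control replicates 1, 2 and 3. Only Slc5a7 averaged above 1 CPM. Only Slc5a7 and Slc18a3 passed the filter on low counts, which 17439 genes passed, and the other 5 were fitted without it or, for Mnx1, not at all. Bulk RNA cannot tell fewer cholinergic cells from less RNA in each.

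Slc5a7, the choline transporter gene, was the most abundant. It had 3.26, 1.65 and 2.17 CPM in knockdown replicates 1, 2 and 3, from 142, 57 and 91 counts, and 3.32, 2.35 and 2.34 CPM in control replicates 1, 2 and 3, from 136, 93 and 65 counts. The groups overlapped, and replicate 1 was the highest library of each. The spread within the knockdown exceeded counting error: the exact 95% Poisson interval was 2.75 to 3.84 CPM in replicate 1 and 1.25 to 2.14 CPM in replicate 2. The means were 2.36 ± 0.821 CPM in the knockdown and 2.67 ± 0.562 CPM in the control (SD, n = 3 each). The log2 fold change, knockdown over control, was -0.17 ± 0.29 (SE, 95% interval -0.81 to 0.46).

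Slc18a3, the vesicular acetylcholine transporter gene, had 1.08, 0.551 and 0.573 CPM in knockdown replicates 1, 2 and 3 and 1.17, 0.960 and 0.504 CPM in control replicates 1, 2 and 3. The groups overlapped here too, and replicate 1 was again the highest in both. The means were 0.735 ± 0.299 CPM in the knockdown and 0.878 ± 0.341 CPM in the control (SD, n = 3 each), a log2 fold change of -0.27 ± 0.42 (SE, 95% interval -1.19 to 0.65).

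Chat, which encodes the enzyme that defines a cholinergic cell, was close to the limit of detection. It had 7, 1 and 2 counts in knockdown replicates 1, 2 and 3 and 3, 8 and 1 counts in control replicates 1, 2 and 3. That is 10 counts in the knockdown (exact 95% Poisson interval 4.80 to 18.4) and 12 in the control (6.20 to 20.96). The Poisson intervals of all 6 libraries overlapped one another, and no difference was detectable at this depth. Intervals of this kind cover counting error only.

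**Figure D2:**
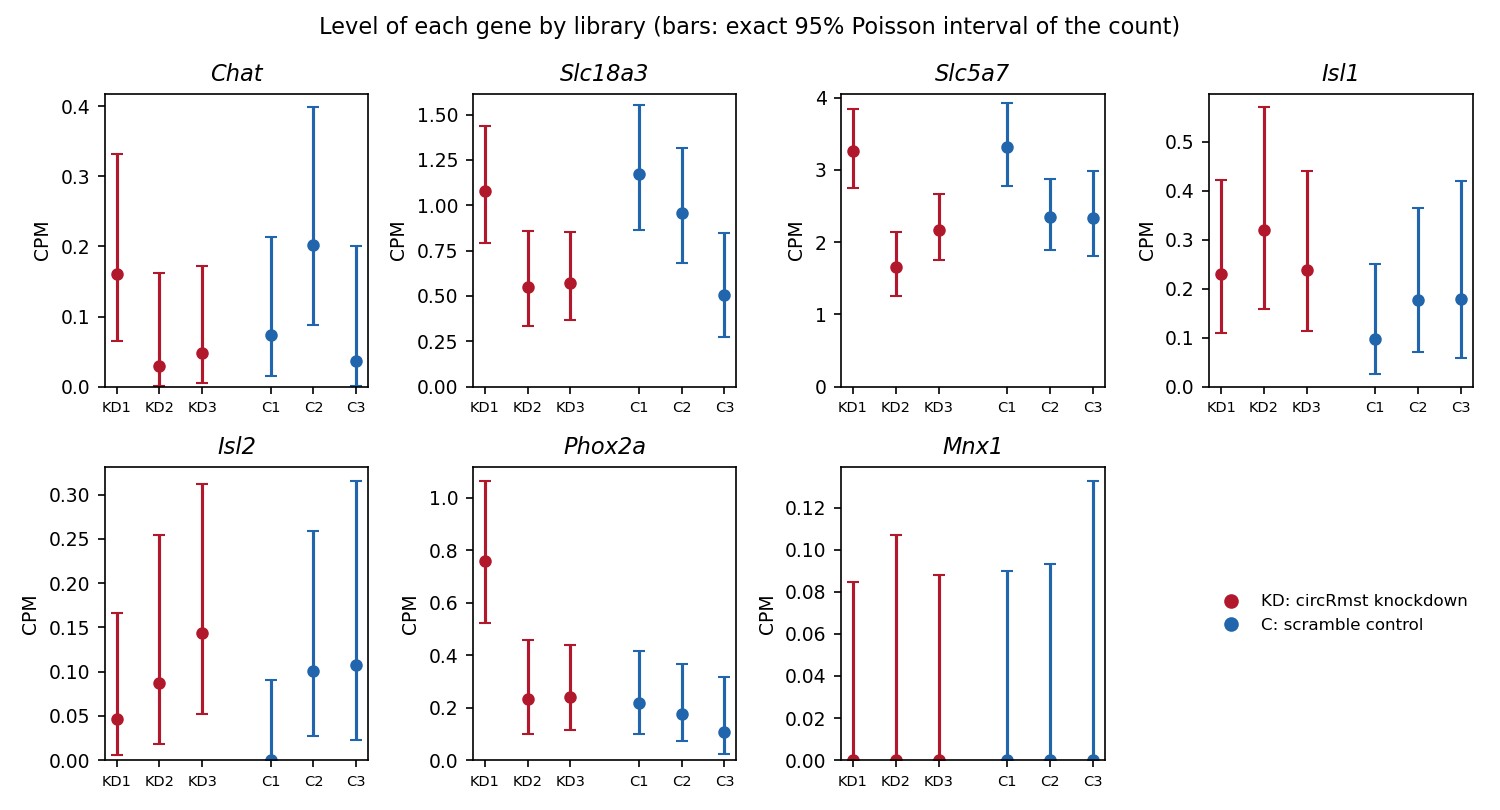
CPM of each of the 7 genes (one panel each, vertical axes from 0 and of different length) in the 3 knockdown libraries (KD, red) and the 3 control libraries (C, blue), with exact 95% Poisson intervals of the counts. Slc5a7 is the only gene above 1.5 CPM, Phox2a is highest in knockdown replicate 1 at 0.758 CPM, and Mnx1 is at 0 in all 6 libraries.

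Of the transcription factor genes, Phox2a had the most counts. It had 33, 8 and 10 counts in knockdown replicates 1, 2 and 3 (0.758, 0.232 and 0.239 CPM) and 9, 7 and 3 counts in control replicates 1, 2 and 3 (0.220, 0.177 and 0.108 CPM). The groups did not overlap, but knockdown replicates 2 and 3 lay close above control replicate 1, and knockdown replicate 1 alone held 33 of the 51 knockdown counts. In a fit without the filter on low counts, the log2 fold change was 1.26 ± 0.62 (SE, 95% interval 0.06 to 2.47), and without knockdown replicate 1 it was 0.45. The 3′ part of Phox2a shares up to 95 bases of exon with Inppl1, an inositol phosphatase gene on the opposite strand. Inppl1 had 47.2, 43.9 and 39.6 CPM in knockdown replicates 1, 2 and 3 and 43.8, 40.5 and 47.0 CPM in control replicates 1, 2 and 3. The libraries were made with a strand-keeping kit, but whether the counting used strand is not stated in the labels or file headers. The deposited counts thus cannot show whether reads of Inppl1 were counted for Phox2a. The part of Inppl1 in the result was not tested. In the authors' FPKM values Phox2a was at 0.287, 0.146 and 0.0948 FPKM in knockdown replicates 1, 2 and 3 and 0.0799, 0.0812 and 0.0576 FPKM in control replicates 1, 2 and 3. These did not overlap, but they come from the same libraries and are not a second measurement. The share of all genes without overlap in FPKM was not counted.

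Isl1, a LIM homeodomain gene of motor and some sensory neurons, had 10, 11 and 10 counts in knockdown replicates 1, 2 and 3 (0.230, 0.319 and 0.239 CPM) and 4, 7 and 5 counts in control replicates 1, 2 and 3 (0.0976, 0.177 and 0.180 CPM). Every knockdown library was above every control library in CPM. The interval of each library overlapped that of every other, as 0.1102 to 0.422 CPM in knockdown replicate 1 and 0.0266 to 0.250 CPM in control replicate 1. The fit without the filter gave a log2 fold change of 0.80 ± 0.72 (SE, 95% interval -0.61 to 2.21). In the authors' FPKM values, which are scaled to transcript length, Isl1 overlapped between the groups, at 0.0646, 0.102 and 0.0451 FPKM in knockdown replicates 1, 2 and 3 and 0.0356, 0.0484 and 0.0687 FPKM in control replicates 1, 2 and 3.

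Isl2, the close relative of Isl1, had 2, 3 and 6 counts in knockdown replicates 1, 2 and 3 and 0, 4 and 3 counts in control replicates 1, 2 and 3. The groups overlapped in counts, with 11 in the knockdown (exact 95% Poisson interval 5.49 to 19.7) and 7 in the control (2.81 to 14.4). Its FPKM was 0.0305, 0.0213 and 0.0323 in knockdown replicates 1, 2 and 3, against 0.0181 in control replicate 2, and it was listed at 0 in control replicates 1 and 3. Mnx1 had 0 counts in all 6 libraries, where 0 counts allow a level of up to 0.0871 CPM in the shallowest knockdown library and 0.108 CPM in the shallowest control library (3 counts per library). The upper ends of the exact 95% Poisson intervals of 0 counts, which are two-sided, are 0.107 and 0.133 CPM in the same libraries.

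With edgeR's quasi-likelihood test, 0 of 17439 genes (0%) had an adjusted p under 0.05, Slc5a7 and Slc18a3 among those not called, and 191 (1.1%) had an unadjusted p under 0.05. Limma voom called 0 genes and DESeq2 called 1, which was not among the 7. Without the filter edgeR called 11 of 28463 genes (0.0386%), and 0 of the 6 studied genes with a count. Of those 6, Phox2a alone had a 95% interval that left out 0 in this edgeR fit, beside 2.07% of all genes at an unadjusted p under 0.05. For Phox2a the interval took in 0 under DESeq2 (log2 fold change 1.28), limma voom (1.04) and limma on FPKM (0.62), and without knockdown replicate 1 (0.45), control replicate 2 (1.29) or control replicate 3 (1.05). In limma on FPKM with 0.1 added and no filter, Isl2, with 0 to 6 counts per library, was at 0.28 ± 0.10 (SE). Its unadjusted p in that fit was 0.0334, beside 1071 of 26943 genes under 0.05, and 0 genes were called. Phox2a and Isl1 were higher in every knockdown library in CPM, beside 2.2% of the genes with a count and 3.54% of the 5424 genes with 10 to 100 counts in all. Since the members were chosen with these values known, nothing is read from those counts.

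**Figure D3:**
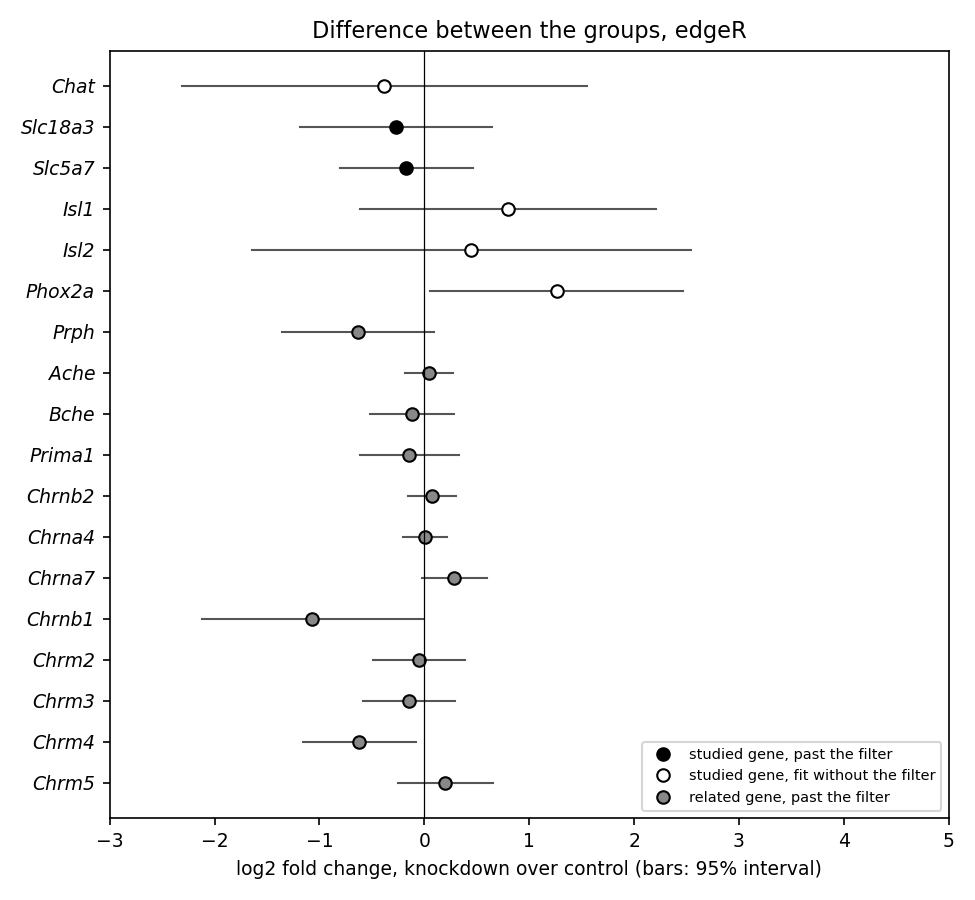
Log2 fold change, knockdown over control, with 95% intervals from edgeR's fit, for the 6 studied genes with a count (black past the filter, white from the fit without it) and for 12 related genes (grey). Phox2a lies at 1.26 with a wide interval, while Ache, Chrnb2 and Chrna4 lie near 0 with narrow ones.

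Per length, the order of the 7 genes was Slc5a7, Slc18a3, Phox2a, Isl1, Chat, Isl2 and Mnx1. Their mean levels over the 6 libraries were 0.274, 0.226, 0.124, 0.0607, 0.0173, 0.0170 and 0 FPKM. Slc5a7 and Slc18a3 overlapped in range, at 0.204 to 0.352 and 0.154 to 0.300 FPKM, as did Chat and Isl2. Slc18a3 did not overlap Chat, its host gene, whose highest library was at 0.0383 FPKM. Of the 26943 genes with any FPKM, 41.4% had a lower mean than Slc5a7 and 17.5% a lower mean than Chat. The dopamine neuron's own vesicular transporter gene, Slc18a2, was at 6.01 to 8.67 FPKM, and the ratio of Slc18a3 to it lay between 0.0178 and 0.0465 in knockdown libraries and between 0.0193 and 0.0425 in control libraries.

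**Figure D4:**
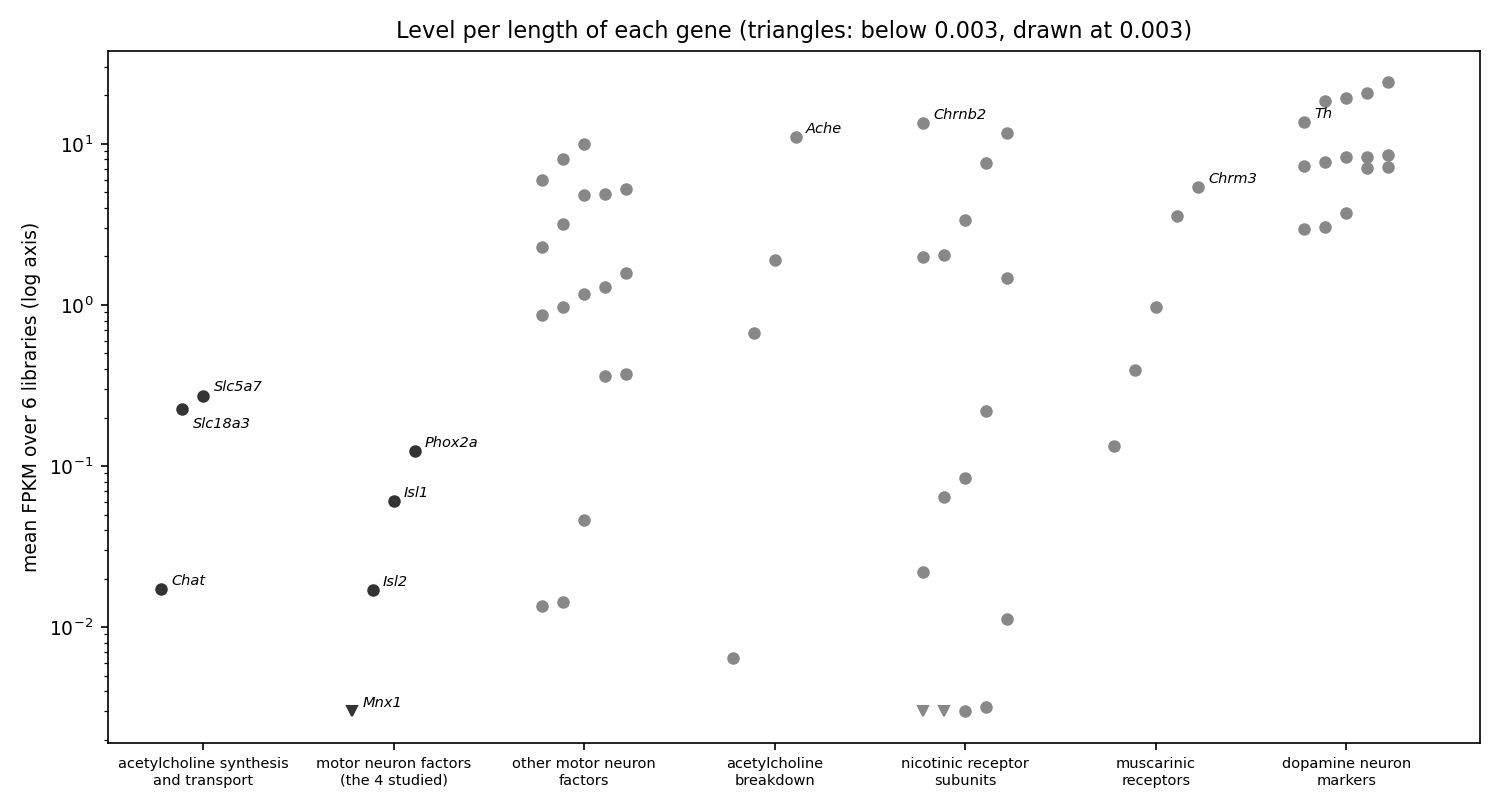
Mean FPKM over the 6 libraries on a log axis for the studied genes (dark) and for related gene lists (grey), each point a gene. The studied genes lie between 0.0170 FPKM (Isl2) and 0.274 FPKM (Slc5a7), with Mnx1 at 0, and all 15 dopamine neuron markers lie above them.

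The labels name dopamine neurons as the cell type, and all 15 dopamine neuron markers passed the filter. Their sum was 804 to 959 CPM in the knockdown and 826 to 951 CPM in the control. Th, which encodes the enzyme that starts dopamine synthesis, was at 36.9, 51.6 and 59.5 CPM in knockdown replicates 1, 2 and 3 and 40.7, 48.1 and 60.9 CPM in control replicates 1, 2 and 3. En2 and En1, homeobox genes of the midbrain, led the list. En2 was at 130 ± 9.56 CPM in the knockdown and 121 ± 13.7 CPM in the control, and En1 at 106 ± 8.08 CPM in the knockdown and 110.1 ± 4.99 CPM in the control (SD, n = 3 each). Beside these sums, the 7 cholinergic and motor neuron genes together were at 2.87 to 5.54 CPM in the knockdown and 3.27 to 4.88 CPM in the control.

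Per length, the most abundant genes that receive or break down acetylcholine lay far above Chat, Slc18a3 and Slc5a7. Other receptor genes lay below Slc18a3 and Slc5a7, such as Chrna1 at a mean of 0.0113 FPKM and Chrng at 0 FPKM. Of 4 genes of breakdown, 3 passed the filter and 0 were called in either direction. Ache, which encodes acetylcholinesterase, was at 43.6 ± 0.701 CPM in the knockdown and 42.3 ± 3.604 CPM in the control (SD, n = 3 each), a log2 fold change of 0.04 ± 0.11 (SE). Bche, the gene of butyrylcholinesterase, had -0.12 ± 0.18, and Prima1, whose product anchors the esterase to membranes, had -0.14 ± 0.21. Per length, Ache had a mean of 10.96 FPKM, against 0.274 FPKM for Slc5a7.

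Of 16 nicotinic receptor subunit genes, 10 passed the filter and 0 were called, with a median log2 fold change of 0.05 beside -0.00603 over all genes tested. The subunits of the main brain receptor led: Chrnb2 was at 131 ± 5.65 CPM in the knockdown and 125 ± 14.8 CPM in the control, and Chrna4 at 92.6 ± 7.18 CPM in the knockdown and 92.2 ± 4.55 CPM in the control (SD, n = 3 each). Chrna6, a subunit typical of dopamine neurons and picked after its values were seen, was at 5.95 to 9.81 FPKM. Of the muscle receptor subunits, Chrne and Chrng had 0 counts in every library, and Chrnd had 1 count, in control replicate 1. Chrna1, also of the muscle receptor, failed the filter, at means of 0.0628 CPM in the knockdown and 0.0625 CPM in the control. Chrnb1, also of the muscle receptor, passed the filter and had 12, 4 and 17 counts in knockdown replicates 1, 2 and 3 and 21, 21 and 19 counts in control replicates 1, 2 and 3, a log2 fold change of -1.07 ± 0.48 (SE). Chrna7, which encodes a receptor made of a single kind of subunit, had 0.29 ± 0.14.

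All 5 muscarinic receptor genes passed the filter and 0 were called, with a median log2 fold change of -0.15. Chrm3, coupled to calcium release, was the most abundant at 31.2 ± 9.56 CPM in the knockdown and 34.6 ± 4.14 CPM in the control (SD, n = 3 each). Chrm4, which encodes an inhibitory receptor, was at 1.36, 1.68 and 1.43 CPM in knockdown replicates 1, 2 and 3 and 2.10, 2.22 and 2.55 CPM in control replicates 1, 2 and 3. These groups did not overlap, beside 5.2% of the genes past the filter, and the log2 fold change was -0.62 ± 0.24 (SE). The groups did not overlap in CPM for Chrnb1, or for Prph of the motor neuron effector genes below, either. Chrm2 had -0.05 ± 0.20 and Chrm5, a receptor gene that dopamine neurons use, 0.20 ± 0.20.

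Of 18 other transcription factor genes of motor neurons or their progenitors, 15 passed the filter, 0 were called, and the median log2 fold change was -0.02. Nkx2-2, a factor gene of ventral progenitors, was at 23.4 ± 2.77 CPM in the knockdown and 26.9 ± 2.63 CPM in the control (SD, n = 3 each), a log2 fold change of -0.20 ± 0.13 (SE). The abundant members of the list are shared with other cells: Foxp1 was at 104 ± 16.3 CPM in the knockdown and 109 ± 8.70 CPM in the control, and Olig2, also of the oligodendrocyte lineage, at 35.7 ± 6.57 CPM in the knockdown and 44.9 ± 10.8 CPM in the control (SD, n = 3 each). Esrrg, an orphan receptor gene, had a log2 fold change of -0.01 ± 0.15.

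Of 15 effector genes linked to motor neurons, 13 passed the filter and 0 were called, with a median log2 fold change of -0.04. Prph, which encodes the filament protein peripherin, typical of neurons with axons outside the brain, was at 0.689 ± 0.162 CPM in the knockdown and 1.06 ± 0.0530 CPM in the control (SD, n = 3 each), a log2 fold change of -0.63 ± 0.33 (SE). Calca, the gene of the neuropeptide CGRP, had -0.38 ± 0.35. The genes that led the list are general to neurons, such as Stmn2 at 942 ± 72.7 CPM in the knockdown and 902 ± 66.6 CPM in the control and Kif21a at 248 ± 17.8 CPM in the knockdown and 259 ± 43.0 CPM in the control (SD, n = 3 each). Slc10a4, whose product sits on vesicles of cholinergic and monoamine neurons and which was picked after its values were seen, was at 6.80 to 8.73 FPKM. At an unadjusted p under 0.05 in edgeR's test there were 2 of the 46 genes tested in these 5 lists (4.35%), Chrnb1 and Chrm4, beside 1.1% of all genes tested.

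Markers of other cells that could carry these genes differed widely in level. Those of forebrain cholinergic neurons summed to 8.21 to 10.3 CPM in the knockdown and 6.26 to 9.49 CPM in the control, most of it from Ngfr, a neurotrophin receptor gene, at 7.92 ± 0.267 CPM in the knockdown and 6.42 ± 1.12 CPM in the control (SD, n = 3 each). Of that list, the factor gene Lhx8 had 0 counts in every library. Of 25 Hox genes, which mark hindbrain and spinal levels, 9 had 0 counts in every library and 22 had 10 or fewer in all, and their sum was 0.215 to 1.38 CPM in the knockdown and 0.216 to 1.24 CPM in the control. Markers of cranial sensory ganglia summed to 25.6 to 50.7 CPM in the knockdown and 26.7 to 57.0 CPM in the control, most of it from Pou4f1, which is also a gene of the red nucleus, and Pou4f2. Of that list, Runx3 had 0 counts. Noradrenergic and autonomic markers summed to 202 to 302 CPM in the knockdown and 186 to 320.1 CPM in the control. Most of it came from Gata3, which midbrain GABAergic neurons also use, and Tfap2b. The other reported genes of that list had lower means over the 6 libraries. They were 19.1 (Gata2), 4.96 (Tfap2a), 3.91 (Slc6a2), 0.745 (Dbh), 0.0902 (Pnmt), 0.00819 (Hand2) and 0.00599 CPM (Hand1). The sums were 56.6 to 61.8 CPM in the knockdown and 51.3 to 68.2 CPM in the control for hypothalamus and pituitary, led by Otp and Six3, with Six6 at 0 counts. Skeletal muscle markers summed to 7.84 to 8.33 CPM in the knockdown and 6.11 to 10.1 CPM in the control, led by Myh8 and Acta1. The other muscle genes had means over the 6 libraries of 0.546 CPM (Tnnt3) or less. Among them, Ckm was at 0.0247, Myod1 at 0.0127, Myog at 0.00805 and Myf5 at 0.00407 CPM. The part of any of these cells in the levels of the 7 genes was not tested.

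By replicate number, Slc5a7 and Slc18a3 were highest in replicate 1 of both groups, as were 13.9% of the genes past the filter. Phox2a, which failed the filter, was also highest in replicate 1 of both groups. The knockdown minus control difference of Slc5a7 was -0.0555, -0.696 and -0.164 CPM at numbers 1, 2 and 3, and that of Slc18a3 was -0.0912, -0.409 and 0.0699 CPM. For Phox2a it was 0.539, 0.0552 and 0.131 CPM and for Isl1 0.132, 0.142 and 0.0591 CPM. Those signs follow from the lack of overlap between the groups in CPM and add nothing to it. Some genes of the hindbrain and its border with the midbrain also peaked in replicate 1. Gbx2, which sets the border of midbrain and hindbrain, had 1.52, 0.348 and 0.239 CPM in knockdown replicates 1, 2 and 3 and 1.88, 0.227 and 0.252 CPM in control replicates 1, 2 and 3. Hoxb2, a hindbrain gene, had 29, 1 and 0 counts in knockdown replicates 1, 2 and 3 and 14, 0 and 0 counts in control replicates 1, 2 and 3. Hoxa2 had 23, 6 and 1 counts in knockdown replicates 1, 2 and 3 and 33, 10 and 4 counts in control replicates 1, 2 and 3. Other Hox genes went otherwise. Hoxb3 had 6, 0 and 0 counts in knockdown replicates 1, 2 and 3 and 2, 3 and 0 counts in control replicates 1, 2 and 3. Hoxb4 had 5 counts, all in control replicate 2. The part of these genes in the levels of Slc5a7, Slc18a3 and Phox2a was not tested.

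The genes with the pattern most like that of Slc5a7, the only one of the 7 at a mean of at least 1 CPM, were Lsm7, Gm52047, Gstk1, Samd15, Grp and Ssbp1. Likeness was the root mean square difference of log2(CPM + 0.1), centred on each gene's mean over the 6 libraries. It was between 0.07 and 0.11 for these 6 of 14500 genes, beside a median of 0.36. Lsm7, a gene of a splicing and RNA decay complex, had 3.42, 1.86 and 2.48 CPM in knockdown replicates 1, 2 and 3 and 3.78, 2.48 and 2.81 CPM in control replicates 1, 2 and 3. It shared the low in knockdown replicate 2 and the highs in replicate 1 of both groups.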

How the data were processed

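The deposited counts are whole numbers per gene, 1 table per library, not pooled. The submitters' processing notes name the build GRCm38 (mm10), bcl2fastq 2.20, Cufflinks 2.2.1 and DESeq2. No aligner, counting tool or strand setting is given in the sources used here. The authors' FPKM columns follow the Cufflinks gene layout, per the file headers. The libraries were made with a strand-keeping kit after removal of ribosomal RNA, per the labels' protocols.

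Counts were tested with edgeR 4.0.16 (R 4.3.3): filterByExpr, TMM scaling, glmQLFit and glmQLFTest with the group alone, and Benjamini-Hochberg adjustment over all genes at a threshold of 0.05. Genes that failed the filter were taken from the same fit without it. The p-values measure the spread between 3 libraries a group. The fit was tested on simulated data. No library was a duplicate of another of its group (chi-square per degree of freedom 12.8 to 91.4). Alternatives were 3 other scalings, 2 other filters, DESeq2 1.42.0, limma 3.58.1 with voom, the replicate number as a block, each library left out in turn, and limma on FPKM values logged with 0.1 or 1 added. The members and gene lists were chosen with earlier results of these data known. Named genes were the 7 members, the 2 most abundant of each list, in the 5 lists on acetylcholine and motor neurons also the 2 with the smallest p, and the 6 genes most like the members at 1 CPM or more. Inppl1, Th, Slc18a2, Slc10a4, Chrna1, Chrna6, Chrnd, Hoxb3, Hoxb4 and list genes at 0 counts were named outside this rule, after their values were seen. So were the noradrenergic, autonomic and muscle genes other than the 2 most abundant of each list. Drgx, of the sensory ganglion list, was not analysed here. 1 gene of 2 lists is not reported here, and the lists' counts, medians and sums leave it out.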

Additional observations from a re-analysis of the deposited data

How the results depend on the processing

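The number of genes called was 0 under each of the other scalings, the filter of 1 CPM, limma voom, the replicate block and the 3 fits on FPKM, and it was 0 to 0 over the fits that left out 1 library. With every gene of at least 1 count in the fit, edgeR called 11 genes, and DESeq2 called 1, with 0 of the 7 among them in either case. The replicate block left 0 genes called, with 258 at an unadjusted p under 0.05 beside 191 without it. Libraries with the same number deviated together at numbers 1 (r = 0.31 across 14501 genes) and 2 (r = 0.38) but not at 3 (r = 0.02), so the numbers were not taken to pair the libraries. The lowest and highest log2 fold changes over the alternatives were -0.48 (without knockdown replicate 1) and 0.02 (without knockdown replicate 2) for Slc5a7, and -0.66 (without knockdown replicate 1) and -0.00602 (without control replicate 1) for Slc18a3. They were -1.39 and 0.51 for Chat, 0.17 and 0.95 for Isl1, -0.17 and 0.93 for Isl2, and 0.45 and 1.54 for Phox2a. With the replicate block Phox2a was at 1.17, and its unadjusted p of 0.0722 lay past 0.05, against 0.0404 without the block in edgeR's fit. Isl1 was lowest on FPKM. With a mean FPKM of at least 0.5 none of the 7 genes remained. Mnx1 had no value to fit. Depth limits the 5 genes that failed the filter most, with 0 to 70 counts each over the 6 libraries.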
